A study of Mus musculus with 12 samples.

Results

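Uroplakins are membrane proteins that build the rigid plaques on the inner surface of the bladder. UPK1A and UPK1B are tetraspanins, which cross the membrane repeatedly and pair with the partner proteins UPK2, UPK3A and UPK3B, and the pairs leave the endoplasmic reticulum only once they have formed. In the mouse lung, Upk3a marks a group of secretory airway cells that sit beside clusters of neuroendocrine cells, and Upk3b and Upk1b are markers of the mesothelium, the cell layer that covers the lung surface. The 5 genes Upk1a, Upk1b, Upk2, Upk3a and Upk3b were chosen by gene symbol, and the family was selected on measured values of the arrays described here, namely the higher Upk3a signal of LOF 6 h and LOF 9 h lungs than of control lungs. Differences of the 5 genes from control in these lungs, and between GOF 9 h and LOF 9 h lungs, are therefore given as a description, with no test. The family has 14 of 62976 array features and 5 of 20738 named genes. Upk1b is read by 10 features, while Upk1a, Upk2, Upk3a and Upk3b are read by 1 feature each.

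Expression was measured in whole embryonic mouse lungs on 12 one-colour microarrays, 3 per group (n = 3), to ask which genes respond early to FGF10, a growth factor from the mesenchyme that acts on the epithelium through the receptor FGFR2b. Loss-of-function (LOF) lungs carried Rosa26rtTAtet(O)solubleR2b, in which a transactivator expressed everywhere from the Rosa26 locus switches on a secreted decoy of FGFR2b once doxycycline is given, and were taken 6 h or 9 h into doxycycline. The decoy is made in the whole embryo and binds every ligand of FGFR2b, not FGF10 alone. Gain-of-function (GOF) lungs carried Rosa26rtTAtet(O)fgf10, an Fgf10 gene that doxycycline switches on, and were taken at 9 h. Control lungs were labelled as untreated wild-type lungs, whereas the text of the study speaks of transactivator-positive littermates from doxycycline-treated mothers as controls for the LOF lungs, taken at both times, and does not describe the GOF lungs. All 4 groups were of strain C57bl/6J, at the stage when the airways are branching. Values are log2 signals after the authors' normalization, and the median feature of an array lay at 2.98. The deposited values used here carry no call of signal against background, so a feature near or below that median may read background.

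The labels were checked on 8 genes of lung epithelium. All 8 lay above the array median, but so did all 11 heart genes read below, so that level alone does not identify the tissue. Etv5, a transcription factor induced by FGF signalling, was lower by 1.87 ± 0.16 (SE) on the log2 scale in LOF 6 h lungs (limma, adjusted p = 0.00310). In LOF 9 h lungs Etv5 was lower by 2.36 ± 0.16 (adjusted p = 6.39e-04). Sftpc, a surfactant protein gene of distal epithelium, fell by 2.86 ± 0.32 in LOF 9 h lungs (adjusted p = 0.00905). The median change of the 8 genes was -0.50 at LOF 6 h and -0.84 at LOF 9 h. One of the 8, Epcam, was above control at both times, by 0.46 ± 0.19 (adjusted p = 0.482) and 0.52 ± 0.19 (adjusted p = 0.516). Epcam was also above control with GOF, by 0.38 ± 0.19. Cdh1 differed by -0.04 ± 0.18 and -0.22 ± 0.18 at the LOF times, and Nkx2-1 by -0.73 ± 0.19 and -0.33 ± 0.19. In GOF 9 h lungs Etv5 differed from control by 0.05 ± 0.16 (adjusted p = 0.999), so it gives no check of the GOF label. Both cell types that the family is known for were looked for by their markers. Of 16 mesothelial genes 15 lay above the array median, among them Wt1 at 8.24 to 9.35 over the 12 arrays, while Msln, which codes for mesothelin, lay at 1.58 to 3.24, around that median. The airway factor Sox2 was present at 5.54 to 7.40, but Scgb1a1 at 2.06 to 4.35 and Scgb3a2 at 1.58 to 3.47, secretory proteins of mature club cells, lay around the array median, so mature secretory airway cells are not shown by their defining markers. Xist, which female cells express, was low on all LOF 6 h arrays at 1.94 to 2.36 and high on all LOF 9 h arrays at 5.51 to 6.35, while control array 2 at 2.11 and GOF 9 h array 1 at 1.93 were low and the other arrays of these groups were between 5.53 and 6.21. Embryo sex and the 2 LOF times therefore cannot be told apart.

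Upk3a was the member whose signal moved most. Its gene lies on chromosome 15 (GRCm38.p6, 85017141 to 85022560). The letters just before its start are shown because it and Upk3b, a gene of the same subfamily whose groups overlapped, lead the results below. The windows are the 250 bases before each start in RefSeq (GRCm38.p6), on the strand of the gene, at chr15:85016891-85017140 for Upk3a and chr5:136038246-136038495 for Upk3b, with matches to 6 searched motifs in capitals.
Upk3a: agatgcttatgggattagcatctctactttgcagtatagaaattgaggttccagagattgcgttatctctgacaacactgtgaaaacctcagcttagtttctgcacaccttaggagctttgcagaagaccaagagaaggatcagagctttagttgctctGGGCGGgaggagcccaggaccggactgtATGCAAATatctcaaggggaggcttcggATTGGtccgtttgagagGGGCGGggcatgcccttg
Upk3b: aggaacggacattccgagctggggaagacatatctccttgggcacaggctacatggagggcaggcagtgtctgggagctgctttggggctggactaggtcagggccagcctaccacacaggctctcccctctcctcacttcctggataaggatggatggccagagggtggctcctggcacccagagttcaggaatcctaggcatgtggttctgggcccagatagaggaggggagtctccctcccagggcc
The motifs, searched on both strands, were CCGGAAG (ETS type), TGTTTAC (forkhead type), ACCGGTT (grainyhead type), the octamer ATGCAAAT, the GC box GGGCGG and the CCAAT box CCAAT, of which the last 3 were added after the Upk3a window had been read. The Upk3a window held the octamer 63 to 56 bases before the start, GC boxes at 91 to 86 and 18 to 13 bases, and a CCAAT box on the opposite strand at 35 to 31 bases. The ETS, forkhead and grainyhead types, planned before, were absent from the Upk3a window. The windows of Upk3b and Upk1a held none of the 6. Since the last 3 motifs were picked from the Upk3a window, nothing is read from this contrast. Among 32851 promoter windows of this length the octamer was in 1.6%, the GC box in 32.7%, the CCAAT box in 33.8%, and the ETS, forkhead and grainyhead types in 6.9%, 3.2% and 0.8%. Windows were found for 3 of the 5 members.

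In control lungs the Upk3a signal was 2.22, 2.96 and 2.54 on the 3 arrays. In LOF 6 h lungs it was 4.42, 4.46 and 4.29. In LOF 9 h lungs it was 5.38, 5.06 and 5.03. All 6 LOF arrays lay above all 3 control arrays, and the LOF 9 h arrays all lay above the LOF 6 h arrays. In GOF 9 h lungs Upk3a read 2.12, 2.52 and 2.24, within or below the control range. Every control and GOF 9 h value of Upk3a was below the array median and every LOF value was above it.

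On the log2 scale, Upk3a was higher than control by 1.82 ± 0.20 (SE, n = 3 per group) in LOF 6 h lungs, a 3.52-fold difference. In LOF 9 h lungs the difference of Upk3a was 2.58 ± 0.20, or 6.00-fold. From LOF 9 h to GOF 9 h lungs, which had doxycycline for the same time, Upk3a differed by -2.87 ± 0.20. These fold differences are set against control and GOF 9 h signals that may read background. The fit over all genes put 1 of the 5 members, Upk3a, past the adjusted threshold at 6 h and at 9 h, beside 0.0723% of genes at either time, and between GOF 9 h and LOF 9 h lungs, beside 0.280% of genes. These counts reuse the values that chose the family, so they are no test of it and nothing is read from them. With only the groups compared in the fit, 0 members passed at 6 h and at 9 h. At 6 h the count was also 0 without control array 3, LOF 6 h array 1 or LOF 6 h array 2, or with Xist or the heart genes as a covariate, while the difference itself stayed between 1.64 and 2.01 over the alternatives tried.

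**Figure D1:**
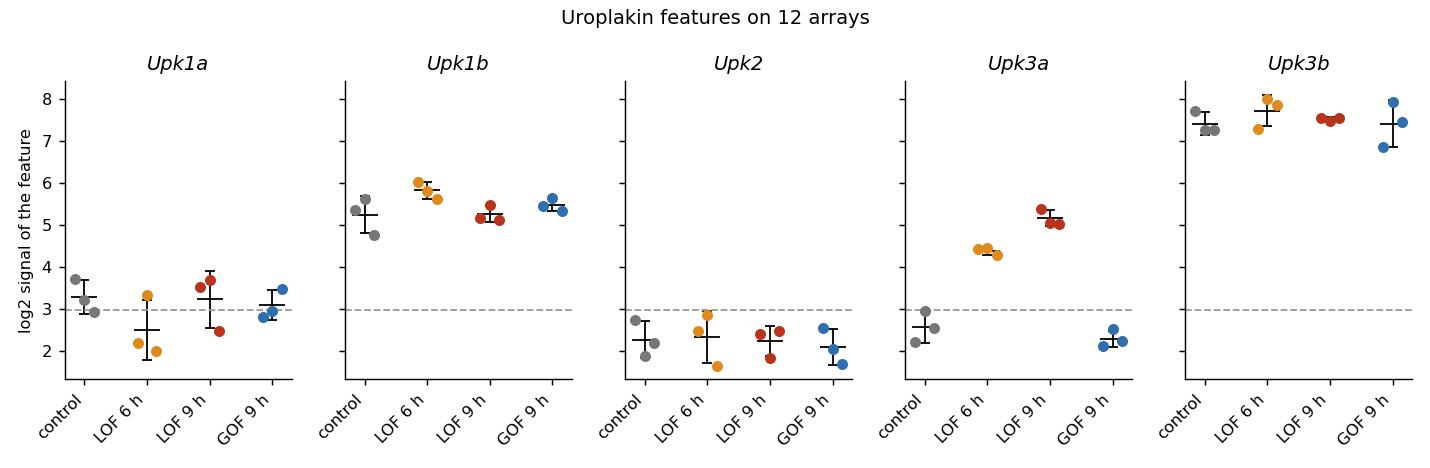
Log2 signal (vertical axis) of 1 feature for each uroplakin gene on the 12 arrays, by group. Points are arrays, bars are the mean and SD of 3 arrays, and the dashed line is the array median of 2.98; the Upk3a points of LOF 6 h (4.29 to 4.46) and LOF 9 h (5.03 to 5.38) lie above the line and those of control and GOF 9 h below it.

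The comparisons that the choice of the family did not use were GOF 9 h against control and LOF 9 h against LOF 6 h, although both share arrays with those that it did. Between LOF 6 h and LOF 9 h lungs Upk3a was higher at 9 h by 0.77 ± 0.20 on the log2 scale, a 1.70-fold difference whose 95% confidence interval was 0.33 to 1.20. The arrays of the 2 times did not overlap, but the difference did not pass in limma after adjustment over all genes (adjusted p = 0.216). Of all genes, 7.95% had every LOF 9 h array above every LOF 6 h array. With Xist as a covariate the Upk3a difference was 0.88 ± 0.29 (adjusted p = 0.583). In GOF 9 h lungs Upk3a differed from control by -0.28 ± 0.20, with an interval of -0.72 to 0.16 (adjusted p = 0.974).

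The Upk3a values can be set out by Xist signal, as a description of the same values. Among arrays with low Xist, the single control array read 2.96, GOF 9 h array 1 read 2.12 and the LOF 6 h arrays 4.29 to 4.46. Among arrays with high Xist, the control arrays read 2.22 and 2.54, the LOF 9 h arrays 5.03 to 5.38 and the GOF 9 h arrays 2.52 and 2.24. In whole lungs, more RNA per cell and more cells of the kind that makes it cannot be told apart.

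Upk1b codes for the tetraspanin that partners UPK3A and UPK3B, and its gene lies on chromosome 16. Its 10 features differed among themselves by a median SD of 0.36 within an array, so their mean is given beside the brightest feature, which stood for the gene in the fit over all genes. The mean of the 10 features was 4.60, 4.93 and 4.89 in control lungs. It was 5.55, 5.64 and 5.44 in LOF 6 h lungs, and 5.50, 5.38 and 4.82 in LOF 9 h lungs. All LOF 6 h arrays were above all control arrays, whereas LOF 9 h array 3 lay in the control range and the other two LOF 9 h arrays above it. In GOF 9 h lungs the mean was 4.92, 4.81 and 4.87, also in the control range.

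The mean Upk1b signal was higher than control by 0.73 ± 0.18 in LOF 6 h lungs and by 0.43 ± 0.18 in LOF 9 h lungs on the log2 scale. All 10 features were above control at 6 h, by 0.43 to 1.28, and in 8 of them the groups did not overlap. At 9 h 9 of 10 were above control, with a range of -0.19 to 0.77. The features share their RNA and are not replicates. The brightest feature read 5.37, 5.62 and 4.76 in control lungs. It read 6.03, 5.82 and 5.63 in LOF 6 h lungs and 5.18, 5.49 and 5.13 in LOF 9 h lungs. By this feature the difference from control was 0.58 ± 0.22 at 6 h but 0.02 ± 0.22 at 9 h. The 9 h value of Upk1b thus depended on which features were used. Whether the 10 features are copies of 1 probe is not in the annotation used. Noise between spots and a difference between probes therefore cannot be told apart. Without LOF 9 h array 3 the mean of the features was higher than control by 0.63 at 9 h, and without LOF 9 h array 1 by 0.29.

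By the brightest feature 2 of 5 members, Upk3a and Upk1b, had every LOF 6 h array above every control array, beside 8.91% of all genes, and 1 of 5, Upk3a, at 9 h, beside 7.61%. Between the LOF times, the mean of the Upk1b features was lower at 9 h by 0.31 ± 0.18 (limma, adjusted p = 0.633) and the brightest feature by 0.56 ± 0.22 (adjusted p = 0.429). With that feature the arrays did not overlap, as in 9.66% of genes. Upk1b in GOF 9 h lungs differed from control by 0.06 ± 0.18 by the mean (adjusted p = 0.999) and 0.23 ± 0.22 by the brightest feature (adjusted p = 0.989). The brightest feature read 5.46, 5.64 and 5.34 there.

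**Figure D2:**
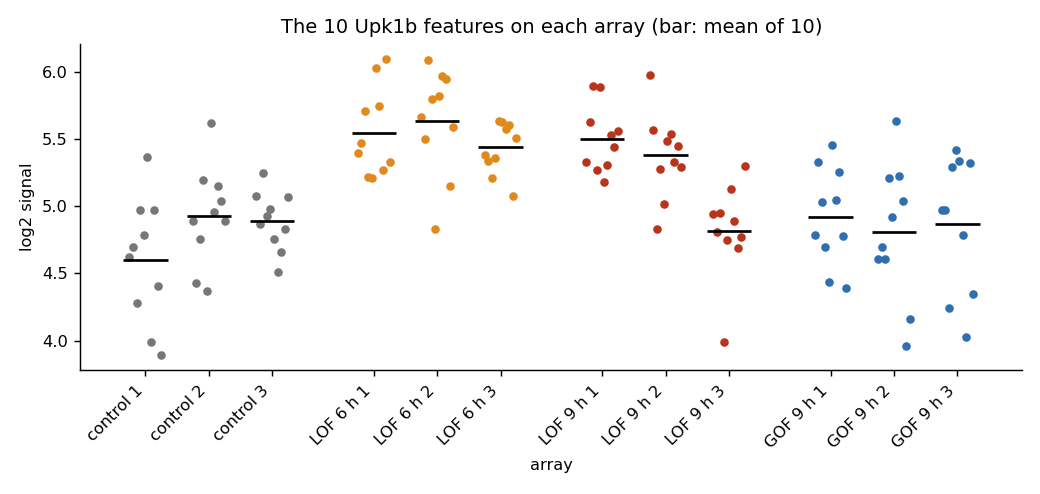
Log2 signal (vertical axis) of the 10 Upk1b features on each of the 12 arrays (horizontal axis, by group and array number). Points are features and bars the mean of 10; the bars of LOF 6 h arrays (5.44 to 5.64) lie above those of control arrays (4.60 to 4.93), and LOF 9 h array 3 (4.82) lies below LOF 9 h arrays 1 and 2.

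Upk3b, the uroplakin of the mesothelium, was well above the array median on every array, and its groups overlapped throughout. Its gene lies on chromosome 5. It read 7.73, 7.26 and 7.26 in control lungs. It read 7.29, 8.01 and 7.87 in LOF 6 h lungs and 7.56, 7.47 and 7.56 in LOF 9 h lungs. In GOF 9 h lungs Upk3b read 6.85, 7.94 and 7.46, the widest spread of the 4 groups. The differences of Upk3b from control were 0.31 ± 0.28 at 6 h and 0.11 ± 0.28 at 9 h on the log2 scale. In GOF 9 h lungs the difference was 0.00 ± 0.28, with a 95% confidence interval of -0.62 to 0.62, and did not pass in limma. Between LOF times it was -0.20 ± 0.28, with an interval of -0.82 to 0.42 (adjusted p = 0.867). With Xist as a covariate the Upk3b difference between LOF times was -0.74 ± 0.34 (adjusted p = 0.727). From control it was then 0.66 ± 0.28 at LOF 6 h and -0.08 ± 0.25 at LOF 9 h. Changes of Upk3b inside these intervals are not excluded with 3 arrays per group. The intervals are no limit of detection, since calls were adjusted over all genes and larger changes could also be missed.

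The 2 remaining members were dim. Upk1a, the tetraspanin partner of UPK2, lies on chromosome 7 and read 3.72, 3.22 and 2.93 in control lungs. In LOF 6 h lungs Upk1a read 2.20, 3.33 and 1.99. In LOF 9 h lungs it read 3.53, 3.70 and 2.47, and in GOF 9 h lungs 2.81, 2.95 and 3.49. These values lie on both sides of the array median and all groups overlapped. The differences of Upk1a from control were -0.78 ± 0.42 at 6 h, -0.06 ± 0.42 at 9 h and -0.20 ± 0.42 in GOF 9 h lungs (limma, adjusted p = 0.999 for the last), and LOF 9 h lungs were above LOF 6 h lungs by 0.73 ± 0.42 (adjusted p = 0.605). Upk2, on chromosome 9, was below the array median on all 12 arrays. Its values were 2.74, 1.88 and 2.20 in control lungs and 2.48, 2.86 and 1.65 in LOF 6 h lungs. They were 2.41, 1.83 and 2.48 in LOF 9 h lungs and 2.54, 2.05 and 1.69 in GOF 9 h lungs. The differences of Upk2 from control were 0.06, -0.03 and -0.17 (SE 0.35 each, adjusted p = 0.999 for GOF 9 h), and between LOF times -0.09 ± 0.35 (adjusted p = 0.964). Without a background call, neither signal can be told from background.

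Over the family, 0 of 5 members passed in GOF 9 h lungs against control (limma, adjusted p), where 0% of genes did and 1068 genes had an unadjusted p under 0.05, and no member did. No member's groups were apart there, beside 9.42% of genes in either direction. Between LOF times 0 of 5 passed, beside 0.0627% of genes, and 2 of 5, Upk3a and Upk1b, had an unadjusted p under 0.05, as had 2106 of 20738 genes. By the mean of features it was 1 of 5, Upk3a. Between GOF 9 h and LOF 9 h lungs the single member whose groups were apart was Upk3a, lower in GOF 9 h lungs as in 8.55% of genes. There the difference was -0.15 ± 0.42 for Upk1a, -0.15 ± 0.35 for Upk2 and -0.11 ± 0.28 for Upk3b. For Upk1b it was 0.21 ± 0.22 by the brightest feature and -0.37 ± 0.18 by the mean of the features.

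**Figure D3:**
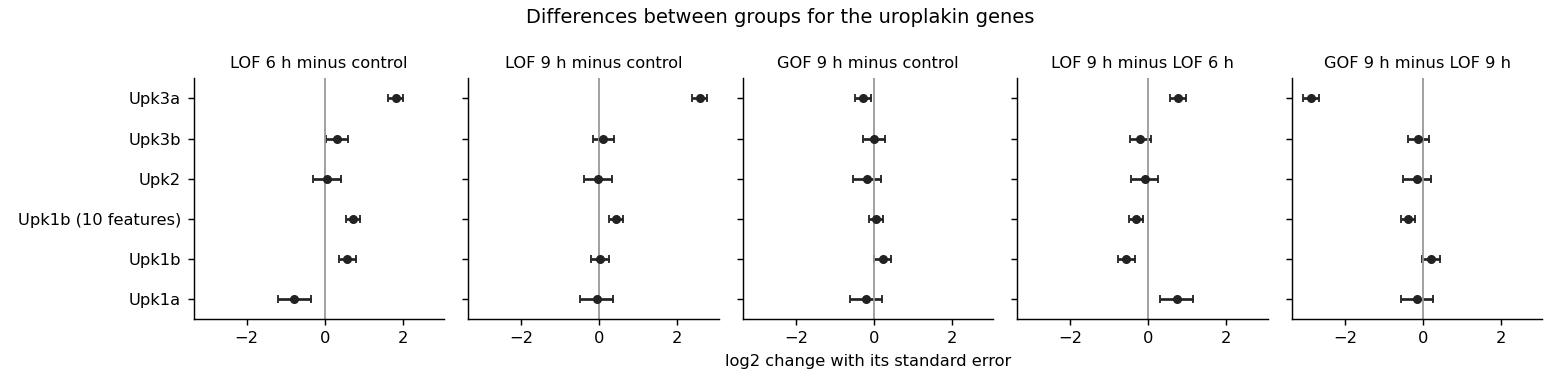
Log2 change (horizontal axis) of each uroplakin gene in the 5 comparisons, 1 panel each. Points are fitted changes with their standard errors, and Upk1b is shown by its brightest feature and by the mean of 10; Upk3a lies at 1.82 and 2.58 in the LOF panels against control and at -2.87 in GOF 9 h minus LOF 9 h.

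The members did not follow each other closely across arrays. By the brightest features, Pearson's r over the 12 arrays, which share their groups, lay between -0.24 and 0.28 for the 10 pairs. With the mean of the Upk1b features, r between Upk1b and Upk3a was 0.73 in place of 0.15. The 5 genes most like Upk3a over the 12 arrays were Gstt3, a glutathione transferase (r = 0.95), Tmprss2, a membrane serine protease of airway and other epithelia (r = 0.95), Pmvk, an enzyme of the mevalonate pathway (r = 0.95), Dnajc12, a co-chaperone (r = 0.94), and Klc3, a kinesin light chain (r = 0.94). The group means of Gstt3 were 7.10 (control), 7.73 (LOF 6 h), 8.18 (LOF 9 h) and 6.90 (GOF 9 h). Those of Tmprss2 were 5.51, 6.36, 6.39 and 5.41 in the same order. Since these genes were picked for their likeness over the same arrays, a higher level in the LOF groups follows from the choice. With all genes taken as the mean of their features, Gstm3, another glutathione transferase (r = 0.95), and Cym, the milk-clotting protease chymosin (r = 0.94), took the places of Pmvk and Klc3.

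**Figure D4:**
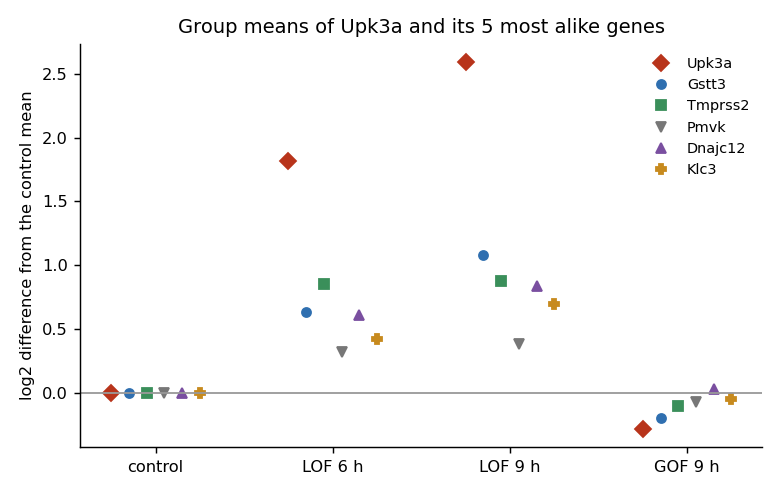
Group means of Upk3a and of the 5 genes most like it over 12 arrays, as log2 difference from the control mean (vertical axis) in each group (horizontal axis). Points are means of 3 arrays; in the LOF 9 h group Upk3a lies at 2.58 and the other 5 lie below it.

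The genes most like the brightest Upk1b feature were Cuedc1 (r = 0.93), Insl6 (r = 0.92), Amph (r = 0.91), Osr1 (r = 0.89), a transcription factor of lung mesenchyme, and En2 (r = 0.86). The group means of Cuedc1 were 5.33 (control), 6.83 (LOF 6 h), 4.96 (LOF 9 h) and 5.79 (GOF 9 h). By the mean of all features none of these was among the 5, which were Stard10, Gdpd1, Fam50a, Tspan31 and Atp1b2 (r = 0.89 to 0.90). For Upk3b they were Ldhd, Casd1, Ndufv2, Lrfn5 and Nkapl (r = 0.84 to 0.89), and for Upk1a Gstm4, Chtf8, Tas2r135, Olfr978 and Fsip2l (r = 0.85 to 0.92). The list for Upk1a rests on values around the array median.

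The mesothelium was read beside Upk3b and Upk1b through 16 marker genes. None passed the adjusted threshold in any of the 5 comparisons (limma, 0 of 16), and 0 to 4 had an unadjusted p under 0.05, beside 1068 to 2470 of 20738 genes. The median change of the list against control was 0.16 at LOF 6 h, 0.03 at LOF 9 h and -0.08 with GOF, beside 0.02, -0.00 and 0.00 for all genes. The mean of the list lay between -0.17 and 0.23 of the control level on every array. Wt1, a transcription factor of the mesothelium, differed by -0.20 ± 0.24 at LOF 6 h (adjusted p = 0.852) and -0.10 ± 0.24 at LOF 9 h (adjusted p = 0.967). Bnc1, another mesothelial regulator, differed by 0.55 ± 0.37 and 0.31 ± 0.37, and Lrrn4 by 0.06 ± 0.31 and -0.11 ± 0.31. At LOF 9 h the smallest p-values of the list belonged to Pdpn at -0.64 ± 0.13 (adjusted p = 0.187), Krt8 at 0.49 ± 0.13 (adjusted p = 0.315) and Rspo1 at 0.71 ± 0.26 (adjusted p = 0.514). The paper counts Pdpn among the differentiation markers that FGF10 regulates in epithelial progenitors. In whole lungs the values of this list therefore cannot be assigned to the mesothelium alone. The higher Upk1b signal at LOF 6 h stood beside a marker list whose median was 0.16. Its relation to the number of mesothelial cells was not tested.

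The airway was read beside Upk3a through 14 genes of proximal airway and club cells and 7 measured genes of neuroendocrine cells. No gene of either list passed in any comparison (limma), and the medians of the airway list were 0.03 at LOF 6 h and 0.01 at LOF 9 h. With GOF the medians were -0.24 for the airway list and -0.23 for the neuroendocrine list, beside 0.00 for all genes. There 13 of 14 airway genes and 6 of 7 neuroendocrine genes lay below control, while 50.4% of all genes lay above it. Sox2, which marks the proximal airway, was at 7.26 to 7.40 in LOF 6 h and 6.60 to 7.24 in LOF 9 h lungs, all above the control arrays at 6.12 to 6.59. Of all genes, 8.91% lay above control in this way at 6 h and 7.61% at 9 h. The differences of Sox2 were 1.02 ± 0.30 (adjusted p = 0.302) and 0.70 ± 0.30 (adjusted p = 0.591). The next smallest p-values at LOF 9 h were those of the basal keratins Krt5 at -1.06 ± 0.70 (adjusted p = 0.772) and Krt15 at 0.83 ± 0.69 (adjusted p = 0.836). Cbr2 of the airway list went the other way from Sox2 at LOF 6 h, at -1.54 ± 0.43 (adjusted p = 0.285). Its arrays there all lay below control, as in 7.51% of genes. By the mean of its features Cbr2 differed by -0.93 at LOF 6 h. At LOF 9 h Cbr2 differed by -0.32 ± 0.43 and the groups overlapped. In the neuroendocrine list the median was 0.61 at LOF 6 h and 0.20 at LOF 9 h. At LOF 6 h every array of Calca, Chga, Resp18 and Uchl1 lay above all control arrays. That was 4 of 7 genes, beside 8.91% of all genes. Chgb at -0.28 ± 0.35 (0.24 by the mean of its features) and Insm1 at -0.14 ± 0.34 were below control there. Calca, a peptide precursor of these cells, differed by 0.97 ± 0.30 at LOF 6 h (adjusted p = 0.344) and by 0.37 ± 0.30 at LOF 9 h (adjusted p = 0.835). By the mean of its features Calca differed by 0.56 and 0.48. Uchl1 at 0.30 ± 0.17, Resp18 at 0.39 ± 0.31 and Insm1 at -0.42 ± 0.34 had the smallest p-values of the list at LOF 9 h. From LOF 6 h to LOF 9 h the median of the neuroendocrine list moved by -0.31, while Upk3a moved by 0.77. Whether either moves with the number of such cells was not tested.

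Of the 16 regulators and differentiation genes of the urothelium, the bladder epithelium in which uroplakins are best known, none passed in any comparison (limma, 0 of 16), and 4 at LOF 6 h and 6 at LOF 9 h had an unadjusted p under 0.05, beside 1941 and 1643 of 20738 genes. They went both ways: at LOF 9 h 8 genes of the list were above and 8 below control. Groups were apart in 3 of each, beside 7.61% of all genes above and 7.83% below. Grhl3, a grainyhead factor that acts on Upk genes in the bladder, read 4.85, 4.30 and 3.51 in control lungs. It read 6.67, 5.94 and 6.36 in LOF 6 h and 6.06, 5.51 and 6.39 in LOF 9 h lungs, all above control. Grhl3 differed by 2.10 ± 0.47 (adjusted p = 0.216) and 1.77 ± 0.47 (adjusted p = 0.315). The forkhead factor Foxa1 differed by 0.49 ± 0.14 (adjusted p = 0.298) and 0.46 ± 0.14 (adjusted p = 0.418), and Gata3 by 0.26 ± 0.25 (adjusted p = 0.806) and 0.75 ± 0.25 (adjusted p = 0.466). The groups of Gata3 overlapped at both times. Beside Grhl3 and Foxa1, the gene above control with groups apart at LOF 9 h was Elf3, at 0.72 ± 0.37 (adjusted p = 0.689). Lower at LOF 9 h with groups apart were Grhl2, Klf5 and Mal. Grhl2 differed by -0.61 ± 0.21 (adjusted p = 0.478), but by -0.27 with the mean of its features. Klf5 differed by -0.51 ± 0.21 (adjusted p = 0.594) and Mal by -1.78 ± 0.67 (adjusted p = 0.522). Krt7, a keratin of simple and urothelial epithelia, differed by 0.11 ± 0.17 and -0.05 ± 0.17. The medians of this list were 0.12 and -0.02, beside 0.02 and -0.00 for all genes.

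Upk1a and Upk1b were also set beside 28 measured tetraspanins. One passed at LOF 6 h and at LOF 9 h, Tspan8, which fell by 1.60 ± 0.22 (limma, adjusted p = 0.0423) and by 2.44 ± 0.22 (adjusted p = 0.00193). The medians of the family were 0.06 and 0.04. Tspan18 at 0.34 ± 0.14 (adjusted p = 0.587) and Cd151 at 0.29 ± 0.12 (adjusted p = 0.594) had the next smallest p-values at LOF 9 h.

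Markers of neighbouring tissues were read because a dissected lung can hold some of them. Of 16 genes of stomach and oesophagus 6 lay above the array median, and their median change was -0.16 at LOF 6 h and -0.29 at LOF 9 h. Cym and Capn9, a calpain of the stomach, rose at LOF 9 h by 4.42 ± 0.59 and 2.95 ± 0.39 (limma, adjusted p = 0.0303 each). By the mean of their features Cym rose by 4.27 and Capn9 by 1.68. The defining factor Barx1 lay at 1.98 to 2.34 in control lungs, and all arrays of the other 3 groups lay above them. It read 3.16 to 3.98 in LOF 6 h lungs, a difference of 1.37 ± 0.25 (adjusted p = 0.136). It read 2.56 to 3.15 in LOF 9 h lungs, a difference of 0.67 ± 0.25 (adjusted p = 0.528), and 2.65 to 3.39 in GOF 9 h lungs, a difference of 0.81 ± 0.25 (adjusted p = 0.894). The mean of the list was 0.09 to 0.36 above the control mean in LOF 6 h and 0.16 to 0.24 in LOF 9 h lungs. The control arrays themselves spread from -0.13 to 0.15. The 11 heart genes, all above the array median, had a median change of 0.99 at LOF 6 h, then 0.24 at LOF 9 h, and -0.63 with GOF. None passed (limma, 0 of 11), with Myh7 at -0.97 ± 0.51 (adjusted p = 0.706) of the smallest p at LOF 9 h, and 5 had an unadjusted p under 0.05 at LOF 6 h, beside 1941 of 20738 genes. The mean of the heart list was 0.50 to 1.28 above the control mean in LOF 6 h lungs. It was -0.31 to 0.43 at LOF 9 h and -0.87 to -0.30 with GOF, while the control arrays themselves spread from -0.50 to 0.49. With that mean as a covariate, Upk3a was higher by 1.86 ± 0.27 at LOF 6 h and by 2.59 ± 0.21 at LOF 9 h. Without it the difference at LOF 6 h was 1.82 ± 0.20. Upk3a was no longer past the adjusted threshold at LOF 6 h, where 1 gene passed in place of 15. Nothing is read from that lost call. The part of heart or stomach tissue in the uroplakin values was not tested.

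**Figure D5:**
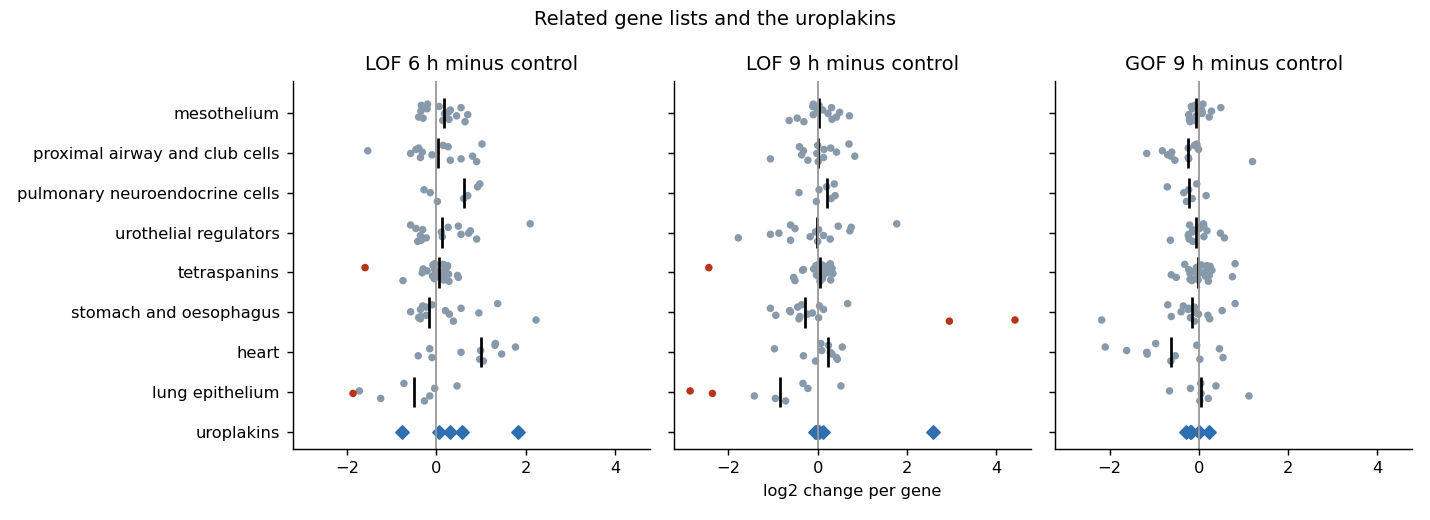
Log2 change against control (horizontal axis) of each gene in 8 related lists and of the uroplakins by their brightest features, in 3 panels for LOF 6 h, LOF 9 h and GOF 9 h. Points are genes, red where the adjusted p of limma was under 0.05 (not shown for uroplakins, drawn as blue diamonds), and bars are list medians; Upk3a lies at 1.82 and 2.58, beside mesothelial medians of 0.16 and 0.03.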

How the data were processed

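RNA from single lungs was labelled with Cy3 and hybridised to 12 arrays. Per the study's methods, the authors corrected mean spot signals for background (NormExp), took logarithms and normalized quantiles between arrays with limma. The deposited values are log2 intensities of 62976 features, with 10 missing. Features were named from the platform annotation brought to current symbols (31465 features with 1 symbol, 20738 genes). The feature with the highest mean stood for a gene. Replicate spots, which the study's methods average on each array, were not averaged before that choice.

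A linear model of the 4 group means on the 12 arrays was fitted with R 4.3.3 and limma 3.58.1. Two-sided p-values were adjusted per comparison (Benjamini-Hochberg, all genes, threshold 0.05). No filter was applied. The pipeline was tested on simulated data. The number of arrays limits the precision (median SE 0.265). Replicates are separate lungs per the labels.

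The 5 members and the gene lists were chosen with earlier results of these data known. Genes named are the members, the 5 most alike per member above the array median, list genes past the threshold in any comparison, up to 3 per list with the smallest p at LOF 9 h, and defining markers. Calca, Cbr2, Cdh1, Chga, Chgb, Elf3, Epcam, Scgb1a1, Grhl2, Klf5, Mal and Xist were named after their values were seen. Promoters are from RefSeq (GRCm38.p6). Protein sequences were not used here. Alternatives were the mean of features, each feature alone, cyclic loess, a filter on dim genes, trend and robust settings, the compared groups alone, the heart list or Xist as a covariate, a replicate block and leaving out each array.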

Additional observations from a re-analysis of the deposited data

Results flagged for a closer look

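Upk3a was lower in GOF 9 h than in LOF 9 h lungs by a log2 value of -2.87, and lower than in LOF 6 h lungs by -2.10, because every LOF array lay above the control mean and every GOF 9 h array below it. The LOF values chose the family, so both differences are given as a description, with no p, and the GOF 9 h values lie inside or just under the range of the control arrays. Groups of 3 arrays were too small to look for single arrays that stand apart.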

How the results depend on the processing

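No difference of a member past the threshold changed sign over the alternatives. Over 19 alternatives the difference of Upk3a was 1.64 to 2.01 at LOF 6 h, 2.41 to 2.78 at LOF 9 h and -2.98 to -2.75 between GOF 9 h and LOF 9 h, as a description of values that chose the family. It was -0.46 to -0.09 in GOF 9 h against control and 0.66 to 0.88 between LOF times, past the adjusted threshold in 0 of 19 each. With trend and robust settings the SE of Upk3a was 0.43 in place of 0.20. The cause of the calls lost was not tested, except that fits of the compared groups alone have fewer arrays. With the mean of features, Upk1b was at 0.43 at LOF 9 h and at -0.37 in GOF 9 h against LOF 9 h.

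Counts of genes past the threshold, in the order LOF 6 h, LOF 9 h, the contrast of both LOF times, and GOF 9 h minus LOF 9 h, were 15, 15, 13 and 58. They were 29, 55, 116 and 452 with only genes above the 50th percentile, which leaves out Upk3a, Upk2 and Upk1a, so 0 members passed in the first, the second and the last. They were 122, 104, 161 and 500 with trend and robust settings, which gave 3 in GOF 9 h against control in place of 0. They were 3, 4, 0 and 16 with the compared groups alone (0 members at either LOF time), 1, 9, 3 and 10 with the heart list as a covariate (0 members at LOF 6 h), and 7 at LOF 6 h (0 members), 1 between LOF times and 20 in GOF 9 h against LOF 9 h with Xist. Leaving out 1 array at a time gave 2 to 39, 7 to 33, 1 to 49 and 13 to 61 genes, the lowest without LOF 6 h array 1, control array 1, LOF 9 h array 1 and LOF 9 h array 3, and 0 to 1 members at LOF 6 h.

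The replicate numbers paired the lungs weakly at most. Deviations of same-numbered arrays correlated at -0.00 to 0.10 (median 0.04), and those of other-numbered arrays at -0.09 to 0.07 (median -0.03). With the replicate number as a block 6 genes passed at LOF 6 h, 5 between LOF times and 22 in GOF 9 h against LOF 9 h, Upk3a stayed at 1.82 and 2.58 in the LOF groups, and the member calls did not change. Leaving out each array moved Upk1b by its brightest feature between 0.33 and 0.76 at LOF 6 h and between -0.23 and 0.20 at LOF 9 h, and Upk1b by the mean of its features between 0.63 and 0.79 and between 0.29 and 0.63 (the latter chosen after seeing the data). The signals of Upk2 and Upk1a around the array median limit what can be seen of them.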

Other observations

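Upk3bl, a neighbour of Upk3b on chromosome 5 with a related name that is not one of the 5 genes, was looked at after the values of the family were seen. Its values were 4.89, 2.43 and 4.19 in control lungs and 5.55, 3.71 and 4.00 in LOF 6 h lungs. They were 3.48, 3.20 and 4.25 in LOF 9 h lungs and 3.91, 2.59 and 4.25 in the GOF group, so its groups overlapped and the spread within a group was wide.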
